A study of Mus musculus with 8 samples.

Results

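Histone methyltransferases and demethylases, the enzymes that put methyl groups on histone lysines and arginines and take them off, were examined in the RNA of Th17 cells with and without *Trim28*. The set was a list of 45 gene names, and its members were the names found in either of the gene count tables. Of the 45 names 44 had reads, out of 13704 genes with reads in all, and 43 held at least 10 reads over both libraries and were tested. *Ehmt2* was listed in neither table, and *Ehmt1* had 2 reads in each library.

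RNA sequencing was done on Th17 cells, the IL-17 producing helper T cells, made in culture from naive CD4+ T cells of C57BL/6 mice. The WT library came from wild-type cells, and whether these carried Cre or floxed alleles was not stated. The KO library came from TRIM28fl/flxCD4cre cells, hereafter *Trim28*-/-, in which Cre under the *Cd4* promoter removes *Trim28* from all T cells before the culture begins. In both groups CD4+CD25-CD62LhiCD44lo cells were sorted and held for 3 days under anti-CD3 and anti-CD28, with TGF-β at 0.5 ng/ml and IL-6 at 20 ng/ml, before a second stimulation through CD3. The age and number of mice behind each library were not given. There was 1 library per genotype, so no difference below has a replicate check, each p-value compares the libraries and not the genotypes, and the intervals cover counting error only.

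The WT library held 6650066 reads over 13078 genes and the KO library 6185108 reads over 12754 genes. *Trim28* itself (chr7:13024152-13031032, GRCm38) had 4485 reads in WT and 180 in KO, a log2 fold change of -4.53 (95% interval -4.76 to -4.32). T cell genes were present at a summed 5016 CPM (reads per 1000000 reads of the library) in WT and 4510 CPM in KO, with 8 of 8 markers detected. Th17 genes summed to 1139 CPM in WT and 328 CPM in KO, with *Il17a* at 2226 and 381 reads and *Il17f* at 3143 and 345 reads called lower. Markers of B cells summed to 12.5 CPM in WT and 7.11 CPM in KO, where *Cd79b*, with 15 and 2 reads, was called lower. Those of macrophages and monocytes summed to 3.46 and 3.07 CPM, those of cytotoxic and NK cells to 7.97 and 4.69 CPM and those of dendritic cells to 1.65 and 1.29 CPM, and *Lyz2*, *Csf1r*, *Adgre1*, *Ncr1*, *Klrb1c* and *Siglech* were at 0 in both.

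Methyl groups on histones mark the state of a gene. Methylation of histone H3 at lysine 4 (H3K4) is found at active promoters and enhancers, that at lysine 36 (H3K36) along transcribed gene bodies, that at lysine 27 (H3K27) on genes silenced by Polycomb, and that at lysine 9 (H3K9) in heterochromatin. TRIM28 is a corepressor that KRAB zinc finger proteins bring to DNA and that recruits the H3K9 methyltransferase SETDB1. In T cells these enzymes are known for setting which cytokine and lineage genes are open in each helper subset.

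The H3K4 methyltransferases *Kmt2a*, *Kmt2c* and *Kmt2d* were the members called lower in KO, and all 3 lost the call when fold changes were corrected for transcript length or when a coefficient of variation between cultures of 0.2 or 0.4 was assumed. A gene was called when its log2 fold change was at least 2-fold in size and the exact binomial test of its reads, adjusted over all 10881 tested genes by the Benjamini-Hochberg method, gave a value under 0.05. By this rule 3 of 43 members (6.98%) were called lower, where 5.53% of all tested genes were, and 0 were called higher, where 2.57% of all tested genes were. These shares lie close to each other, so the count of members called is not itself a result about the set. At an adjusted p under 0.05 whatever the fold, which is called past counting error from here on, 24 of 43 members (55.8%) were lower and 3 (6.98%) higher, against 22.4% and 21.4% of all tested genes. Genes with more reads pass this limit more easily, and neither members nor other lists were matched to all genes by reads. At a limit of 1.5-fold with the same adjusted p, 8 members (18.6%) were lower and 0 higher, against 11.5% and 7.02% of all tested genes, and by a change of 2-fold with no test 5 were lower and 0 higher, against 7.94% and 3.75%. Of the 43 members 35 had a log2 fold change below 0 and 8 above 0, against 51.4% and 48.6% of all tested genes. The median log2 fold change was -0.28 over the members and -0.02 over all tested genes. In bulk RNA, fewer cells with a transcript and less of it per cell cannot be told apart.

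**Figure D1:**
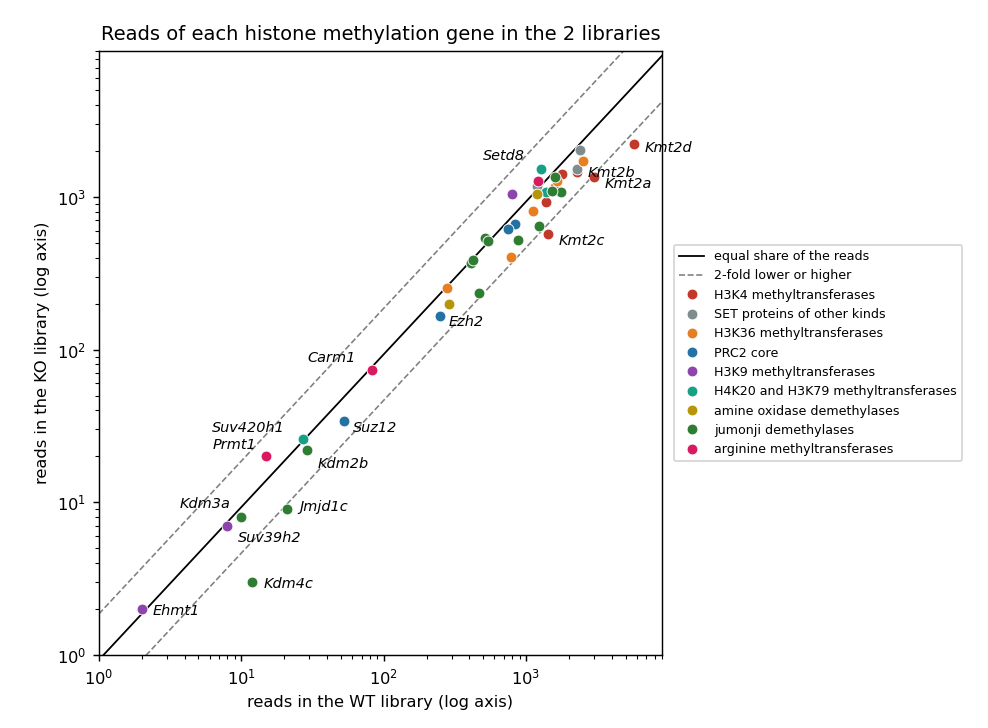
Reads of each of the 44 histone methylation genes in the WT library (x axis, log scale) and the KO library (y axis, log scale), with 1 point per gene coloured by the role of the enzyme. The solid line marks an equal share of the reads of both libraries and the dashed lines a change of 2-fold. *Kmt2a*, *Kmt2c* and *Kmt2d* lie on or under the lower dashed line with 1345, 570 and 2201 KO reads, and the 10 named genes at the lower left have fewer than 100 WT reads each.

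*Kmt2d*, which makes mono-methylated H3K4 at enhancers, had the most reads of all members in WT. It had 5691 reads in WT and 2201 in KO. The KO level was thus 41.6% of the WT level, a log2 fold change of -1.27 (-1.34 to -1.19), at an adjusted p of 1.57e-293 by the exact binomial test. *Kmt2c*, its close relative in the same enhancer complexes, had 1431 reads in WT and 570 in KO. This was 42.8% of WT, or -1.22 (-1.37 to -1.08) on the log2 scale, with an adjusted p of 4.03e-70 by the same exact test. *Kmt2a*, the MLL1 enzyme that keeps *Hox* and other developmental genes active, had 2986 reads in WT and 1345 in KO. It stood at 48.4% of WT with a log2 fold change of -1.05 (-1.14 to -0.95), which lies close to the 2-fold limit, and at an adjusted p of 1.22e-113 by the exact test.

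The genes of the called enzymes lie on chr15:98831669-98874077 (*Kmt2d*), chr5:25271795-25498855 (*Kmt2c*) and chr9:44803355-44881352 (*Kmt2a*) of GRCm38, all on the minus strand. The bases before their start sites are shown for the called members, to give the base composition and the motifs there. In the 250 bases before the RefSeq start, G and C made up 91.6% for *Kmt2c*, 76.8% for *Kmt2a* and 67.6% for *Kmt2d*, with 48, 29 and 26 CpG, whereas the median over 32851 promoters in the RefSeq table was 52.4% with 6 CpG and that over the members' promoters 62.0% with 21 CpG. The stretches below end where the first annotated exon of the gene begins, at chr9:44881353-44881539 for *Kmt2a* and chr5:25498856-25499033 for *Kmt2c* (GRCm38.p6, minus strand, 5′ to 3′). Capitals mark the GC box, GGGCGG on either strand, where neighbouring boxes may overlap.
Kmt2a: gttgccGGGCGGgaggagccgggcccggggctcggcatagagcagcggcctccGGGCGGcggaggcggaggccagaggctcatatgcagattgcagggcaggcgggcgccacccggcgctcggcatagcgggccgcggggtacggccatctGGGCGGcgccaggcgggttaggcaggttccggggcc
Kmt2c: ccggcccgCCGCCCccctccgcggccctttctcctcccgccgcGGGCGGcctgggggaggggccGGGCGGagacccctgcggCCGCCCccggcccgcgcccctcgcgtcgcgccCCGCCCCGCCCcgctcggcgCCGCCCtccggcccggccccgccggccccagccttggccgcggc
The *Kmt2a* stretch held 3 GC boxes and the *Kmt2c* stretch 7. No sequence is shown for *Kmt2d*, whose whole window (chr15:98871206-98871455) lies in a predicted first exon. The GC and CpG values above cover all 250 bases. Of these, 187 for *Kmt2a*, 178 for *Kmt2c* and 0 for *Kmt2d* lie outside annotated exons of the gene itself.

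Further motifs were searched on both strands of the same windows of 250 bases. GGGCGG was in 65.1% of the 43 promoters of 31 member genes and in 32.7% of all promoters. The CCAAT box (CCAAT) was in 39.5% of the members' and 33.9% of all promoters, and the TATA box (TATAAA) in 0 of the members' and 12.4% of all promoters. The STAT element TTCNNNGAA, the form that STAT factors bind, was in 6.98% of the members' promoters and 7.02% of all. Among the called members it was in that of *Kmt2d*, whose whole window lies in a predicted first exon. These are matches of letters and not bound sites. All promoters, here and for the base composition above, are those of the whole RefSeq table, not limited to genes with reads in these cells. A comparison with the promoters of such genes alone was not made, so these shares are not shown to be particular to the members. The annotation also holds *Gm39326*, a noncoding gene on the other strand named here because 504 of the 16810 exonic bases of *Kmt2a* overlap its exons. The counting was not stated to use strand, so that reads from those bases cannot be told apart.

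The other H3K4 methyltransferases were lower in KO by less than 2-fold. Thus all 7 of this role were lower past counting error and 0 higher, against 22.4% and 21.4% of all tested genes. Their summed level was 2578 CPM in WT and 1469.7 CPM in KO, and their median log2 fold change was -0.54. *Kmt2b* (MLL2), which tri-methylates H3K4 at CpG-rich promoters, had 2285 reads in WT and 1459 in KO, a log2 fold change of -0.54 (-0.64 to -0.45). *Setd1b* had 1378 and 931 reads and *Setd1a* 1785 and 1419 reads. These are the catalytic subunits of the SET1 complexes that make most of the tri-methylated H3K4, and their log2 fold changes were -0.46 (-0.58 to -0.34) and -0.23 (-0.33 to -0.13). *Setd7*, a mono-methyltransferase of H3K4 and of many other proteins, had 1588 reads in WT and 1165 in KO, or -0.34 (-0.45 to -0.23).

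Partners of these enzymes were read beside them. Of 13 subunits of the SET1 and MLL complexes, a list that includes the shared core that the enzymes need for activity, 13 were tested and 0 were called in either direction. Past counting error 3 were lower and 4 higher, against 22.4% and 21.4% of all tested genes. The median log2 fold change of the partners was 0.09. With 5.53% of all genes called lower and 2.57% higher, a count of 0 among 13 is near the background. The median length of the partners was 3385 bases against 8857 bases for the enzymes. After the length correction the partners had a median of 0.20, with 1 lower and 6 higher past counting error. The 7 enzymes then had a median of -0.12, with 4 lower and 0 higher, and 17.5% and 20.8% of all genes were lower and higher. The difference between partners and enzymes was not tested.

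Of the 3 SET proteins of other kinds, *Setd5* and *Kmt2e* were lower past counting error and *Setd3* was not. *Setd5* had 2278 reads in WT and 1511 in KO, a log2 fold change of -0.49 (-0.58 to -0.39). *Kmt2e* (MLL5), a reader of H3K4 methylation with no established histone methyltransferase activity, had 2378 and 2013 reads, or -0.14 (-0.22 to -0.05). *Setd3*, an actin histidine methyltransferase, had 1198 reads in WT and 1168 in KO, or 0.07 (-0.05 to 0.19), an interval that holds 0.

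Among the 5 H3K36 methyltransferases 4 were lower past counting error, against 22.4% of all tested genes. Of the 5, 0 were called and the median log2 fold change was -0.36. *Ash1l*, a Trithorax enzyme that di-methylates H3K36 and opposes Polycomb, differed most. It had 790 reads in WT and 406 in KO, 55.3% of WT, with a log2 fold change of -0.85 (-1.03 to -0.68). *Nsd1*, the di-methylating enzyme of intergenic chromatin, had 2494 and 1711 reads, or -0.44 (-0.53 to -0.35). *Setd2*, which travels with RNA polymerase II and makes the tri-methylated form, had 1114 and 808 reads, or -0.36 (-0.49 to -0.23). The remaining members of the NSD family lay nearer to 0. *Whsc1l1* (NSD3) had 1651 reads in WT and 1261 in KO, or -0.28 (-0.39 to -0.18), and *Whsc1* (NSD2) 277 and 254 reads, or -0.02 (-0.27 to 0.23).

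The core of PRC2, the complex that methylates H3K27, was lower past counting error in 3 of 4 subunits, against 22.4% of all tested genes. It had 0 called and a median log2 fold change of -0.35. Its summed level was 283 CPM in WT and 238 CPM in KO. *Ezh2*, the catalytic subunit of dividing cells, had 248 reads in WT and 167 in KO, a log2 fold change of -0.46 (-0.76 to -0.18). *Ezh1*, the alternative catalytic subunit that is known from resting cells, had more reads, 832 and 661, or -0.23 (-0.38 to -0.08). *Eed*, the subunit that reads tri-methylated H3K27, had 749 and 613 reads, or -0.18 (-0.34 to -0.03). *Suz12*, the scaffold subunit, had 53 and 34 reads and an interval of -1.20 to 0.11 that holds 0. Per kilobase of transcript and per 1000000 reads (RPKM), *Eed* stood at 54.5 in WT, *Ezh1* at 29.7, *Ezh2* at 13.4 and *Suz12* at 1.82. *Eed* and *Ezh1* have 1 curated RefSeq transcript, *Ezh2* and *Suz12* 2. Over all genes with reads the median WT level was 6.50 RPKM with 1 and 3.08 with 2. How reads that fit several transcripts were counted was not stated. The order of the subunits by reads or RPKM thus need not be that of their RNA. Of 7 accessory subunits of PRC2, *Jarid2*, which guides the complex to chromatin, was called lower with 32 reads in WT and 11 in KO, a log2 fold change of -1.39 (-2.57 to -0.41). After the length correction it stood at -0.97 and was not called. Of all tested genes 5.53% were called lower. The list of accessory subunits had 2 members lower and 2 higher past counting error, against 22.4% and 21.4% of all tested genes, and a median of 0.03.

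The H3K9 methyltransferases were the least complete role, since of 4 names *Ehmt2* was in neither table and *Ehmt1* had too few reads for a fold change. These 2 genes encode G9a and GLP, which di-methylate H3K9 as a pair. *Ehmt2* lies at chr17:34898463-34914073. *Suv39h1*, which makes tri-methylated H3K9 in heterochromatin, was higher in KO past counting error. It had 796 reads in WT and 1045 in KO, 141% of WT, with a log2 fold change of 0.50 (0.36 to 0.63), the largest among members with at least 100 WT reads. Its paralog *Suv39h2* had 8 and 7 reads, or -0.08 with an interval of -1.78 to 1.57.

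*Setd8*, the mono-methyltransferase of histone H4 at lysine 20 (H4K20) that acts in the cell cycle, was higher in KO as well. It had 1277 reads in WT and 1528 in KO, 129% of WT, with a log2 fold change of 0.36 (0.26 to 0.47), and at 70.1 RPKM it stood highest of all members in WT. *Suv420h1*, which carries H4K20 to the di- and tri-methylated forms, had 27 and 26 reads, or 0.05 (-0.78 to 0.88). *Dot1l*, the only known methyltransferase of H3 at lysine 79, had 1389 and 1077 reads, or -0.26 (-0.38 to -0.15). Cell cycle genes were also higher in the KO library. Of 16 proliferation genes 13 were higher past counting error and 0 lower, against 21.4% and 22.4% of all tested genes. The 16 genes had a median log2 fold change of 0.51 and a summed level of 5173 CPM in WT and 6853 CPM in KO. Of these *Ccnb1*, at 582 and 1348 reads, and *Cdc20*, at 864 and 1990 reads, were called higher, where 2.57% of all tested genes were. The part of proliferation in the levels of *Suv39h1* and *Setd8* was not tested.

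Of the 16 demethylases 0 were called, near the 5.53% of all genes called lower, and their median log2 fold change was -0.32, or -0.08 after the length correction. The 2 amine oxidase demethylases remove mono- and di-methyl groups from H3K4. *Kdm1a* (LSD1) had 1190 reads in WT and 1048 in KO, or -0.08 (-0.20 to 0.04) on the log2 scale. *Kdm1b* (LSD2) had 290 and 200 reads, or -0.43 (-0.70 to -0.17), which passed counting error.

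Of the 14 jumonji demethylases, which use iron and 2-oxoglutarate, 6 were lower past counting error and 0 higher, against 22.4% and 21.4% of all tested genes. The median log2 fold change of the 14 was -0.32. *Kdm6a* (UTX), which removes H3K27 methylation and sits in the complexes of *Kmt2c* and *Kmt2d*, had 468 reads in WT and 233 in KO. Its level was 53.6% of WT, a log2 fold change of -0.90 (-1.13 to -0.67). *Kdm6b* (JMJD3), the inducible H3K27 demethylase, had 540 and 517 reads, or 0.04 (-0.14 to 0.22), so that these paralogs had intervals that do not overlap.

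The KDM5 enzymes remove tri- and di-methylated H3K4. *Kdm5b* had 1227 reads in WT and 642 in KO, or -0.83 (-0.97 to -0.69). *Kdm5a* had 872 and 520 reads, or -0.64 (-0.80 to -0.48). *Kdm5c*, on the X chromosome, had 1606 and 1341 reads, or -0.16 (-0.26 to -0.05). All 3 were thus lower past counting error while the intervals of *Kdm5a* and *Kdm5b* did not reach that of *Kdm5c*.

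*Kdm2a*, which binds unmethylated CpG and removes H3K36 methylation, had 1755 reads in WT and 1075 in KO, or -0.60 (-0.71 to -0.49). *Kdm3b*, an H3K9 demethylase, had 1519 and 1098 reads, or -0.36 (-0.48 to -0.25). The KDM4 enzymes act on H3K9 and H3K36, and the readings for *Kdm4a*, with 512 and 539 reads, and *Kdm4b*, with 409 and 367 reads, were 0.18 (0.00 to 0.36) and -0.05 (-0.26 to 0.16). *Phf8*, an X-linked demethylase of mono-methylated H4K20 and di-methylated H3K9, had 425 and 388 reads, or -0.03 (-0.23 to 0.18). *Kdm4a*, *Kdm4b* and *Phf8* did not pass the test.

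The remaining jumonji genes had few reads. *Kdm4c* had 12 reads in WT and 3 in KO, or -1.73 (-4.36 to -0.01) on the log2 scale, with an adjusted p of 0.0782 by the exact binomial test. *Jmjd1c* had 21 and 9 reads, or -1.07 (-2.43 to 0.07), *Kdm2b* 29 and 22 reads and *Kdm3a* 10 and 8 reads. None of these 4 passed the test at this depth.

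*Kdm6a* and *Kdm5c* have relatives on the Y chromosome, which were outside the list. *Uty*, the relative of *Kdm6a*, was called lower with 256 reads in WT and 107 in KO, a log2 fold change of -1.15 (-1.49 to -0.82), and *Kdm5d*, the relative of *Kdm5c*, had 374 and 209 reads, or -0.73 (-0.99 to -0.49). The other Y genes examined moved in different directions, since *Ddx3y* had 730 and 456 reads, or -0.57 (-0.75 to -0.40), and *Eif2s3y* 377 and 459 reads, or 0.39 (0.19 to 0.59). *Xist*, which is made from an inactive X chromosome, had 0 reads in both libraries. Y genes were therefore read in both libraries, and the X-linked members *Kdm6a*, *Kdm5c*, *Phf8* and *Suv39h1* ran from -0.90 to 0.50. Of 10 further demethylase names 8 were tested, and 2 were called lower and 0 higher, against 5.53% and 2.57% of all tested genes. The called genes were *Kdm7a*, an H3K9 and H3K27 demethylase with 634 and 252 reads (-1.22, interval -1.44 to -1.01), and *Uty*. Both lost the call with the length correction, at -0.76 for *Kdm7a* and -0.92 for *Uty*.

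The arginine methyltransferases had 0 called members and a median log2 fold change of 0.15. *Prmt5*, which makes symmetric di-methylarginine on histones and splicing proteins, had 1216 reads in WT and 1259 in KO. Its log2 fold change of 0.15 (0.04 to 0.27) was higher past counting error and small in size. *Carm1* (PRMT4) had 83 and 74 reads, or -0.06 (-0.53 to 0.41), and *Prmt1*, the enzyme behind most asymmetric di-methylarginine in cells, had only 15 and 20 reads, or 0.51 (-0.52 to 1.59).

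**Figure D2:**
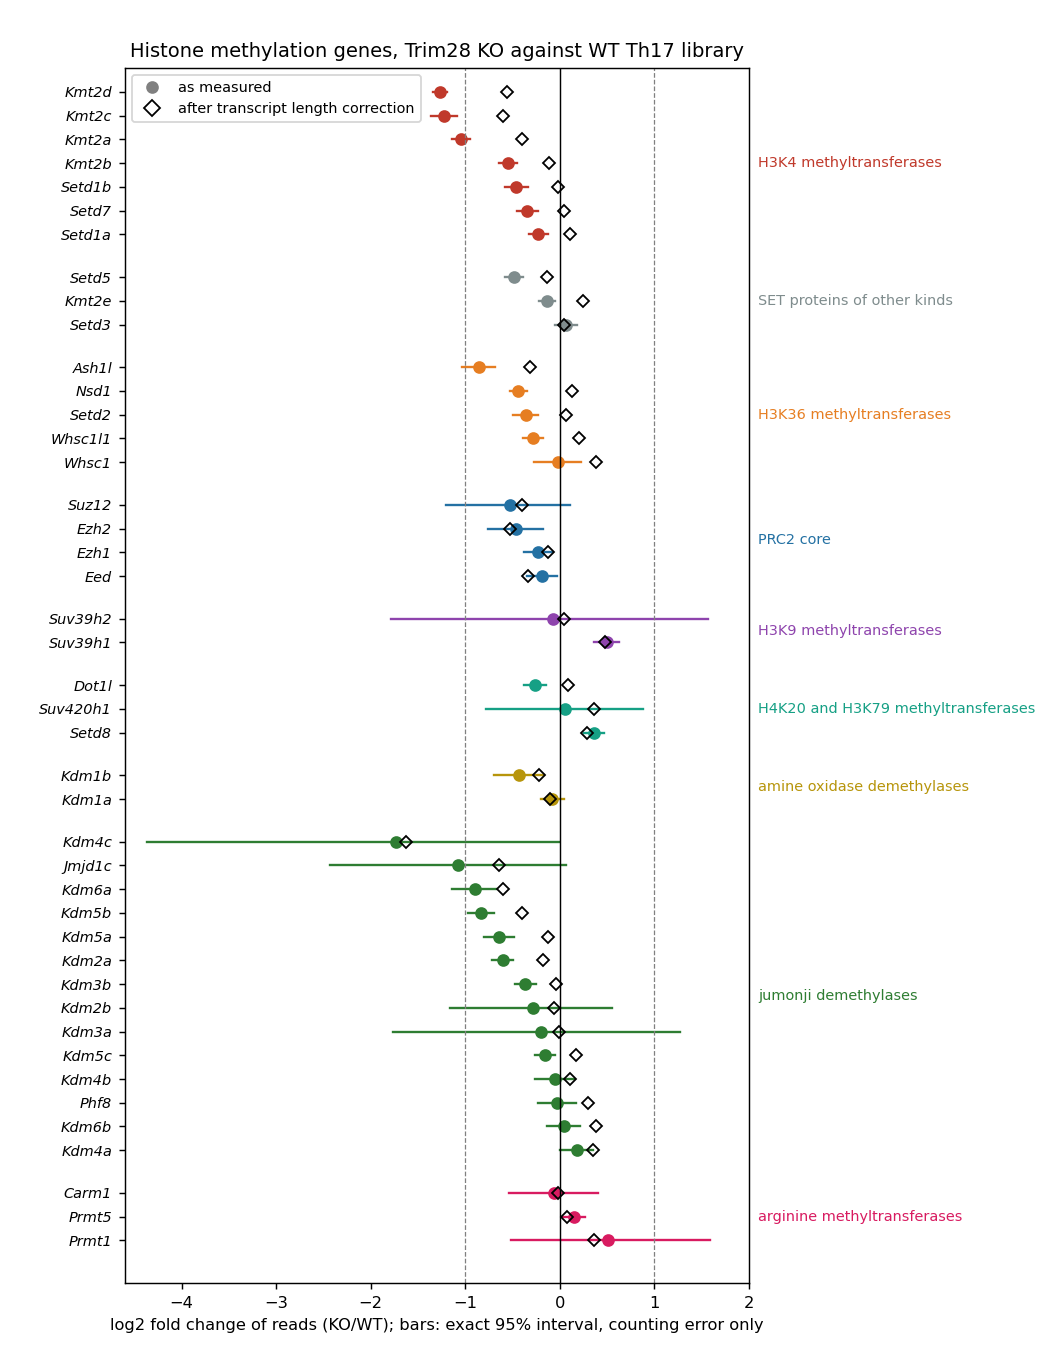
Log2 fold change of reads in KO over WT (x axis) for the 43 tested genes (y axis), grouped by role. Filled circles are the values as measured with exact 95% intervals that cover counting error only, open diamonds are the same values after the transcript length correction, and dashed lines mark a change of 2-fold. The filled circles of *Kmt2a*, *Kmt2c* and *Kmt2d* lie beyond -1 with narrow intervals, whereas their diamonds lie at -0.39, -0.60 and -0.55, and the wide intervals of *Kdm4c*, *Jmjd1c*, *Kdm3a* and *Suv39h2* belong to genes with 8 to 21 WT reads.

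Transcript length moved with these differences. Fold changes in the KO library fell with the length of the transcript over all genes, and the members are long: the median length of their longest GENCODE transcript was 6363 bases (2067 to 19823), against 3317.5 bases over all tested genes with a length, and 35 of 43 were above that median. Spearman's rho of log2 fold change and length was -0.62 across the 43 members and -0.37 across 10792 genes, given as a description, since all points come from the same pair of libraries. Over the 1080 genes with the longest transcripts, 6653 bases and more, the median log2 fold change was -0.44 and 12.1% were called lower. They included 19 members, among them all 3 that were called, and their median was -0.49. Over the 1080 genes with the shortest transcripts the median was 0.29 and 2.41% were called lower.

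The called members are among the tested genes with the longest annotated transcripts. Length is that of the longest GENCODE transcript of a gene, which need not be the form made in these cells. *Kmt2d* at 19823 bases ranked number 11, *Kmt2a* at 16470 bases number 21 and *Kmt2c* at 14967 bases number 42 of the 10792 tested genes by length. Over the 42 genes at least as long as *Kmt2c* the median log2 fold change was -0.82, with 10 of 42 (23.8%) called lower and 1 higher. In order of fold change from the lowest, *Kmt2d*, *Kmt2c* and *Kmt2a* were numbers 6, 7 and 12 of these 42. They were thus lower than most of these 42 genes, but not the lowest of them.

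With the length curve taken off, 0 of 43 members were called in either direction, where 4.32% of all genes were called lower and 2.46% higher. The median of the members was then -0.02, against 0.0032 over all genes. Past counting error 11 members (25.6%) were lower and 10 (23.3%) higher, against 17.5% and 20.8% of all genes. At the limit of 1.5-fold 2 members (4.65%), *Kmt2c* and *Kdm6a*, were lower and 0 higher, against 8.22% and 6.5% of all genes. The values lay below 0 for 23 members and above 0 for 20, against 49.7% and 50.3%. *Kmt2c* had a log2 fold change of -0.60 (-0.75 to -0.46), *Kmt2d* of -0.55 (-0.63 to -0.48), *Kmt2a* of -0.39 (-0.49 to -0.30) and *Kmt2b* of -0.12 (-0.21 to -0.02) after this correction. These 4 were still lower past counting error, while *Setd1a*, *Setd1b* and *Setd7* lay between -0.02 and 0.11, and the median of the role moved from -0.54 to -0.12.

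PRC2 core had a median of -0.37 after the correction and -0.35 before it, while its subunits moved in different directions. *Ezh2* stood at -0.53 (-0.82 to -0.24) and *Eed* at -0.34 (-0.49 to -0.18), both further from 0 than before, whereas *Ezh1* moved to -0.12 (-0.27 to 0.02) and no longer passed counting error, so that 2 of 4 subunits were lower. *Kdm6a*, of 5935 bases, moved from -0.90 to -0.60 (-0.84 to -0.38) and was still lower past counting error, and *Suv39h1* and *Setd8* stayed higher at 0.48 (0.35 to 0.62) and 0.29 (0.18 to 0.40). Some long members passed to the higher side past counting error, namely *Kmt2e* at 0.24, *Nsd1* at 0.13, *Whsc1* at 0.38 and *Whsc1l1* at 0.20, together with *Kdm4a* at 0.35, *Kdm5c* at 0.17, *Kdm6b* at 0.39 and *Phf8* at 0.30. Of the SET proteins of other kinds *Setd5* was lower past counting error, at -0.14 (-0.23 to -0.04). Among the H3K36 enzymes only *Ash1l* was lower past counting error, at -0.32 (-0.50 to -0.15), and among the jumonji genes *Kdm6a*, *Kdm5b* at -0.39 (-0.53 to -0.26) and *Kdm2a* at -0.17 (-0.28 to -0.06). Whether the trend with length arose in the cells or in the making of the libraries was not tested.

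**Figure D3:**
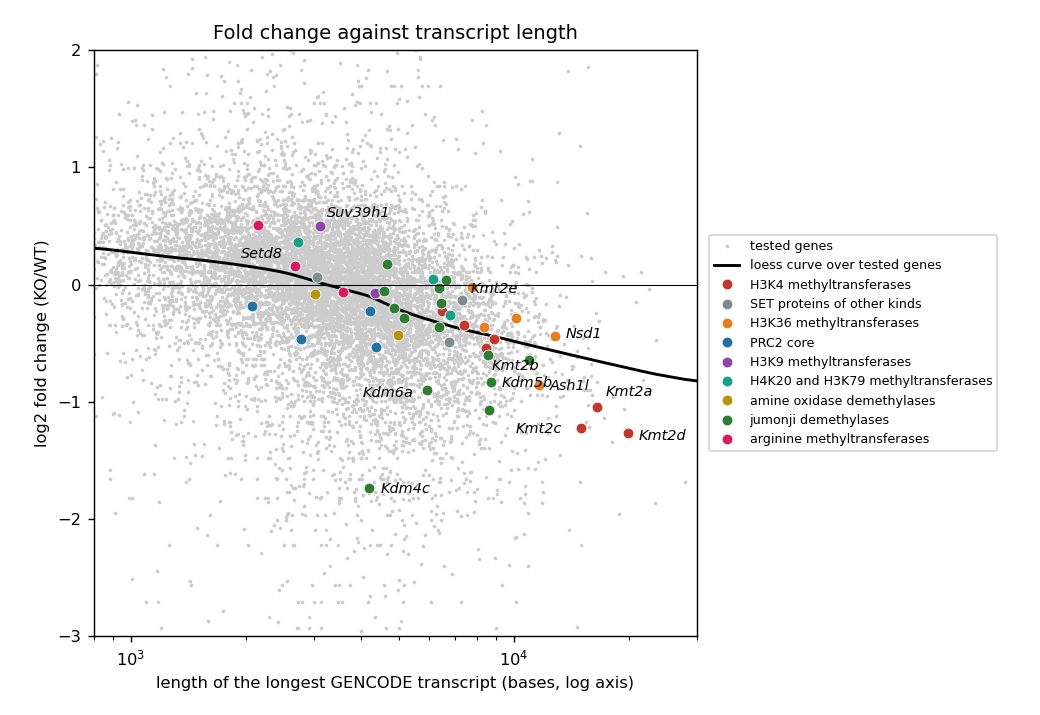
Log2 fold change of reads in KO over WT (y axis) against the length of the longest GENCODE transcript in bases (x axis, log scale). Grey points are all tested genes inside the axes, the line is the loess curve over tested genes, and coloured points are the members by role. The curve falls with length, *Kmt2a*, *Kmt2c* and *Kmt2d* lie under its right end, and *Kdm6a* and *Kdm4c* lie well under it at middle lengths.

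Between members the levels in WT ran from 0.0505 RPKM for *Ehmt1* to 70.1 RPKM for *Setd8*. Next came *Prmt5* at 68.0, *Kdm1a* at 59.1, *Setd3* at 58.9, *Eed* at 54.5 and *Setd5* at 50.7 RPKM. *Kmt2d* stood at 43.2 RPKM and *Kmt2a* at 27.3 RPKM in WT and at 18.0 and 13.2 RPKM in KO.

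Several of the lowest members are genes that are known as widely active, and the level moved with the number of transcripts annotated for the gene. The 20 members with 1 curated RefSeq transcript had 8.74 to 54.5 RPKM in WT, and none had fewer than 100 reads. Of the 24 members with 2 or more curated transcripts 10 had fewer than 100 reads in WT, namely *Carm1*, *Suz12*, *Jmjd1c*, *Suv39h2*, *Kdm4c*, *Prmt1*, *Kdm2b*, *Suv420h1*, *Kdm3a* and *Ehmt1*. *Suv420h1* has 10 curated transcripts, *Kdm2b* 5 and *Ehmt1*, *Prmt1*, *Kdm3a* and the unlisted *Ehmt2* 4 each. Exceptions ran the other way, since *Setd3* with 6 and *Setd8* with 4 curated transcripts were among the highest.

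The same order held over all genes with reads. The median WT level was 6.50 RPKM over 7633 genes with 1 curated transcript, 3.08 with 2, 2.35 with 3 and 1.78 with 4 or more. Fewer than 100 WT reads were found for 46.1% of the genes with 1 and 57.7% of the 6002 genes with 2 or more. How the counting treated reads that fit several transcripts was not stated and its part in these levels was not tested, so that a low count of such a gene need not be a low level of its RNA. The fold changes of the 2 kinds also differed among members, with a median of -0.40 over 20 tested members with 1 curated transcript and -0.08 over 23 with more. Their median lengths were 7880.5 and 4577 bases, and after the length correction their medians were -0.08 and 0.04, in the same order.

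**Figure D4:**
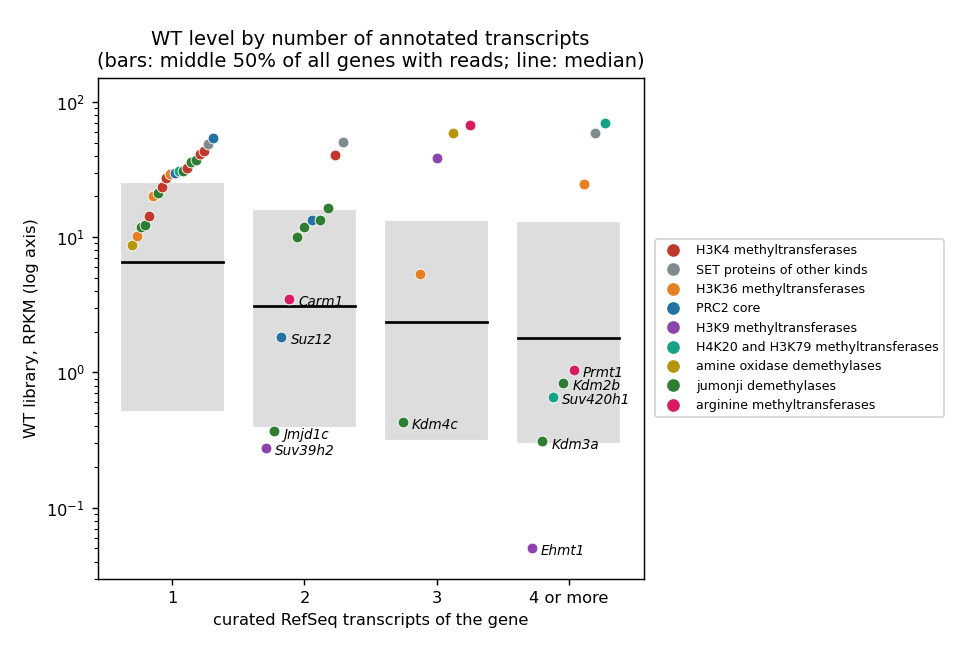
WT level in RPKM (y axis, log scale) by the number of curated RefSeq transcripts of the gene (x axis). Coloured points are the 44 members with reads by role, grey bars span the middle 50% of all genes with reads and the black line is their median. No member with 1 transcript lies under 8.74 RPKM, whereas the 10 named members with 2 or more lie at 3.48 RPKM or lower.

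Of the other lists of histone methylation and of neighbouring pathways, 3 had counts of calls near the 5.53% lower and 2.57% higher of all genes. Of 16 further methyltransferase names 15 were tested with 0 called, 1 lower and 0 higher past counting error, and a median log2 fold change of 0.14. The 10 genes of methyl donor supply, which make S-adenosylmethionine and its one-carbon precursors, had 0 called, 3 lower and 5 higher past counting error, and a median of 0.23. Of 25 acetyltransferase and deacetylase names, the enzymes of the other main histone mark, 21 were tested and *Hdac11*, at 12 reads in WT and 2 in KO (-2.22 on the log2 scale, interval -5.68 to -0.31), was called lower. That list had 6 lower and 3 higher past counting error and a median of -0.06. Of all tested genes 22.4% were lower and 21.4% higher past counting error. The 3 lists had median transcript lengths of 3034 to 3274 bases, against 8857 bases for the H3K4 methyltransferases. After the length correction their medians were 0.02, 0.16 and -0.02 in the order named, and that of the H3K4 methyltransferases was -0.12. The difference of the lists from those enzymes was not tested. Of the PRC2 partners 1 of 7 was called lower and of the other demethylases 2 of 8, and over these lists *Hdac11* was the called gene that kept its call with the length correction, at -2.30.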

How the data were processed

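The authors deposited, for each of the 2 RNA libraries, a table of unnormalized counts, the number of reads assigned uniquely to each gene, headed by a total that equals their sum. Per the study's methods reads were mapped to mm10 with SOAP2, and the submitters' processing notes also name HTSeq and Bowtie with no role. The counting program, annotation and use of strand are not given in the sources used here. The tables leave out genes with no read, and a gene found in only 1 table was given 0 in the other. The ChIP samples among the 8 samples of the series were not analysed here.

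Counts were scaled to the library totals (CPM, and RPKM per kilobase of the longest GENCODE M21 transcript). Log2 fold changes had 0.5 added to each count. A gene entered the test with 10 or more reads summed over the libraries. Its KO reads were compared with the share of the KO library in all reads by the exact binomial test (two-sided, SciPy 1.17.1), and p-values were adjusted by Benjamini-Hochberg over all tested genes. A call needed an adjusted p under 0.05 together with a 2-fold change, the limits of the study's methods. Exact Clopper-Pearson 95% intervals were used. With 1 library per genotype no residual degrees of freedom are left for the quasi-likelihood test of edgeR. A count of 3 reads, 0.451 CPM in WT and 0.485 CPM in KO, was taken as the floor. It was not used to remove values, and lower counts, such as the 2 reads of *Ehmt1* in each library, are printed as read. The length correction took a loess curve (span 0.3, statsmodels 0.14.6) of log2 fold change against log2 length off each value and shifted the share expected by the test accordingly. The scripts were tested on simulated data.

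Of 13704 names 12841 matched a RefSeq symbol of GRCm38.p6, 804 a unique older symbol and 59 none. A length was found for 99.2% of tested genes. All 44 members with reads matched, and promoters and transcript numbers were taken from RefSeq.

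The members and lists were chosen with earlier results of these data known, and the lists were written from general knowledge. Named genes were all members, *Trim28*, the genes of the other lists (SET1 and MLL complex partners, PRC2 partners, other methyltransferases, other demethylases, methyl donor supply, acetylation enzymes, proliferation, sex-linked genes and markers of T, Th17, B, macrophage, cytotoxic, NK and dendritic cells) that were called, and 5 sex-linked genes. Markers at 0 and *Gm39326* were named after their values were seen. Alternatives were DESeq2 1.42.0 size factors, edgeR 4.0.16 with TMM or with its exact test at an assumed variation, scaling by the upper quartile, other added counts, filters and folds, corrections for length and GC content, and, chosen after seeing the data, only genes with 1 curated transcript.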

Additional observations from a re-analysis of the deposited data

How the results depend on the processing

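The count of 3 members called lower became 0 with the transcript length correction, 0 and 0 where edgeR's exact test assumed variation between cultures of 0.2 and 0.4, 8 at a limit of 1.5-fold (18.6% of members, against 11.5% of all tested genes) and 5 by a change of 2-fold alone (against 7.94%), and stayed at 3 under the other alternatives. The fewer calls with an assumed variation follow from its wider error, and the cause of the change with length was not tested. The median of the members moved from -0.28 to -0.020, that of the H3K4 methyltransferases from -0.54 to -0.12 and that of the jumonji demethylases from -0.32 to -0.047 with the length correction. With only genes of 1 curated RefSeq transcript, an alternative chosen after seeing the data, the median of the 6 H3K4 methyltransferases left was -0.75.

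Of 532 values of single members under the alternatives 499 kept direction and side of the limits, 9 lost the call, 7 gained it and 17 turned sign. With the length correction *Setd1a* turned to 0.11, *Setd7* to 0.042, *Kmt2e* to 0.24, *Setd2* to 0.063, *Nsd1* to 0.13, *Whsc1* to 0.38, *Whsc1l1* to 0.20, *Suv39h2* to 0.043, *Dot1l* to 0.091, *Kdm4b* to 0.10, *Kdm5c* to 0.17 and *Phf8* to 0.30. With TMM *Whsc1* turned to 0.0047, and with the GC correction *Whsc1* to 0.12, *Suv39h2* to 0.041, *Kdm6b* to -0.039 and *Phf8* to 0.019.

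Over all genes 602 were called lower and 280 higher, against 466 and 266 with the length correction, 389 and 184 with at least 10 reads in each library, 131 and 65 at an assumed variation of 0.2, 9 and 7 at 0.4, 1248 and 764 at 1.5-fold, 864 and 408 by 2-fold alone and 325 and 184 of 6019 genes with 1 curated transcript. No paired analysis was possible because each genotype has 1 library, and leaving out a library would leave no comparison.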
